A study of Canis lupus familiaris with 14 samples.

Results

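Gene expression before treatment was compared between dogs whose lymphoma responded to an investigational PI3K inhibitor and dogs whose lymphoma did not. The comparison used the 10 lymphoma arrays among the 14 of the series, 5 from responders and 5 from non-responders, assigned by the dog ID in each label and the response that the study lists for that dog. The other 4 arrays are lymph nodes of 3 normal dogs from a Beagle colony. They give background levels here and enter no main test between responders and non-responders. Only an alternative fit of all 14 arrays includes them. Each lymphoma sample was a fine needle aspirate of an enlarged node, taken before the drug, whose RNA was amplified and read on the GeneChip Canine Genome V2.0 Array. Response was scored later, from the change in node size, so the arrays describe the tumors at baseline.

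The responders were NE45 (Golden Retriever, T-cell label), RB07 (Boxer, B-cell label), FS25 (Boxer, T-cell label), NE42 (Labrador Retriever, B-cell label) and NE41 (Boxer/Pitt Bull Terr. Mix, B-cell label). The non-responders were RB10 (Boxer), RB03 (Pointer), FS21 (Pitt Bull Terrier/Lab. Retriever Mix) and RB16 (Chesapeake Bay Retriever), all with a B-cell label, and FS22 (Beagle), with a T-cell label. The first letters of an ID give the clinic. RB07 and FS25 among responders and FS21 and FS22 among non-responders had relapsed after chemotherapy, and the others had not been treated. The best response was partial in 4 of the 5 responders and stable disease in FS25 and in all 5 non-responders. Only the tumor of NE45 stained positive for multi-drug resistance.

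The groups were not balanced for other features of the dogs. The study sorted its tumors into the expression classes E-J and K-N from profiles of the same RNA, these arrays among them. Responders had 2 tumors in E-J and 3 in K-N, against 4 and 1 for non-responders. The 3 dogs of clinic NE were all responders, clinic FS had 1 responder and 2 non-responders, and clinic RB had 1 responder and 3 non-responders. The drug was given in a dose escalation. The study places NE42 and a pair of unnamed dogs with T-cell lymphoma at the high dose. The doses of the other dogs are not given in the sources used here, so dose and response cannot be told apart.

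PI3K is the lipid kinase that turns signals from antigen and growth factor receptors into the membrane lipid PIP3. PIP3 recruits PDK1 and Akt, and Akt then drives mTOR complex 1 and keeps FOXO transcription factors out of the nucleus. Lipid and protein phosphatases restrain the pathway. B and T lymphocytes use mainly the delta and gamma forms of the catalytic subunit, and their tumors often depend on the pathway for growth and survival.

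Array quality overlapped between the groups. The median signal of an array was 91.1 to 130 in responders and 85.5 to 131 in non-responders. The ratio of the 3' to the 5' GAPDH probe set, which rises as RNA is degraded, was 5.36 to 8.60 in responders and 3.76 to 8.94 in non-responders, with RB10 highest. Among the normal nodes this ratio was 23.2 in 3024l and 3.30 to 5.31 in the others. Normal means below average over nodes, and 3024l and 3024r are of the same dog. The lineage markers did not follow every label. RB07 and RB10 carried B-cell labels, yet their summed signal over 19 T-cell markers was 58409 and 78023, close to the 72521 of NE45 and the 70923 of FS25. FS22 carried a T-cell label, and its T-cell sum was 8577, within the range of 3621 to 16298 of the other E-J tumors. Signals are linear array units scaled by the authors, and values below are log2 of them, averaged over the probe sets of a gene. On this scale a signal of 100, the minimum used for testing, lies near the middle of an array.

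No gene separated responders from non-responders after adjustment for the genes tested. Of 8567 genes whose signal reached 100 in 3 or more of the 10 arrays, 0 passed an adjusted p of 0.05 in limma (0%), and the smallest adjusted p was 0.906. At an unadjusted p under 0.05 there were 344 genes (4.02%), 151 higher and 193 lower in responders. The methods' t-test called 0 genes after adjustment and had 287 at an unadjusted p under 0.05. The groups did not overlap for 44 genes (0.514%), 17 higher and 27 lower in responders. A full split of 5 against 5 arises by arrangement alone with a probability of 0.00794, so this count is not read as a result. The 95% confidence interval of a gene's log2 difference had a median half-width of 0.88 with 5 dogs a group. Without RB10, 1 gene passed, LRIG1, and without RB03, 2 genes passed, LOC482182 and TNFRSF18. TNFRSF18 had a signal of 100 or more in 3 of the 10 dogs, and its log2 difference over all 10, 2.05, was -0.16 once low signals were set to 100. Without RB07, RB10 and FS22 together, the dogs whose markers went against their labels, 0 genes passed and 425 had an unadjusted p under 0.05.

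LRIG1 encodes a membrane protein that restrains receptor tyrosine kinases, and it was named here after its values were seen. Its log2 signals in responders were 5.67, 6.18, 6.88, 6.37 and 6.76 for NE45, RB07, FS25, NE42 and NE41. In non-responders they were 0.87, 1.69, 2.76 and 3.01 for FS22, RB03, FS21 and RB16, and 7.33 for RB10, the highest of all 10. The log2 difference was 3.24 over all 10 dogs (standard error 1.01, limma adjusted p = 0.906) and 4.29 without RB10 (adjusted p = 0.0459). A signal of 100 was reached in 3 of the 10 dogs, FS25, NE41 and RB10, and the log2 difference over all 10 turned to -0.07 once low signals were set to 100.

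Response accounted for less of the variation among the tumors than class did. The study drew the classes from expression profiles that include these arrays, so a large share and closer pairs for class were built in. Response took 11.8% of the total sum of squares over the 8567 genes with 1 degree of freedom, against 30.8% for class. Clinic took 16.6% with 2 degrees of freedom, the B-cell or T-cell label 11.6% and prior chemotherapy 10.2%. These shares overlap, because the features are not independent. An arbitrary split of the 10 arrays also takes a share, which grows with its degrees of freedom. No share was set against such a baseline, so none is read as an effect. Euclidean distances between pairs of arrays averaged 129 for a responder with a non-responder, which lay between the 137 of responder pairs and the 120 of non-responder pairs. Pairs of the same class averaged 113 and pairs of different classes 142. Within a class, the average was 112 for a responder with a non-responder, 122 for responder pairs and 109 for non-responder pairs.

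**Figure D1:**
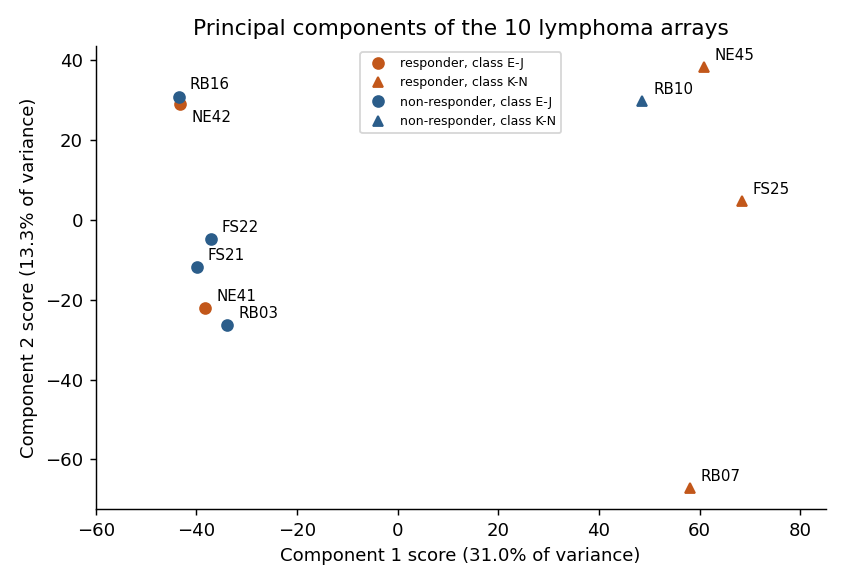
Scores of the 10 lymphoma arrays on the first (31.0% of variance, x axis) and second (13.3%, y axis) principal components of log2 signal, 1 point a dog. The 4 class K-N tumors (triangles) sit between 48.6 and 68.3 on the x axis and the 6 class E-J tumors (circles) between -43.5 and -33.8, while responders and non-responders are mixed on both axes within class E-J.

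The genes that led the ranking in the higher direction are given as values, since none passed. IL2 encodes the cytokine that drives T-cell proliferation. Its log2 signals in responders were 6.93 in NE45, 8.90 in RB07, 8.31 in FS25, 6.60 in NE42 and 7.22 in NE41. In non-responders they were 3.12 in FS22, 5.93 in RB10, 4.06 in RB03, 3.80 in FS21 and 1.30 in RB16. Every responder lay above every non-responder, and the normal nodes had a mean of 7.22. The log2 difference was 3.95 (standard error 0.77, limma unadjusted p = 0.000395, adjusted p = 0.906). A single probe set reports IL2, all 5 non-responders were under a signal of 100, and the difference was 0.96 once low signals were set to 100.

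ELOVL5 encodes an enzyme that lengthens polyunsaturated fatty acids. It read 8.34, 7.53, 7.85, 6.64 and 7.88 in NE45, RB07, FS25, NE42 and NE41, against 6.16, 6.25, 6.59, 6.13 and 5.98 in FS22, RB10, RB03, FS21 and RB16. The groups did not overlap, although NE42 lay only just above RB03. All 4 of its probe sets were higher in responders, with a mean log2 difference of 1.43 (standard error 0.32, limma adjusted p = 0.906). NETO2, an auxiliary subunit of glutamate receptors, had signals over 100 in all 10 dogs. It was 9.35, 9.22, 9.64, 8.0 and 9.0 in the responders and 8.15, 6.85, 7.61, 7.85 and 7.33 in the non-responders in the same order of dogs. NE42 lay below FS22, and the log2 difference was 1.48 (standard error 0.36). The normal nodes averaged 6.61, below every tumor.

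LOC608078, an unnamed locus, had the smallest unadjusted p of all genes. Its responders lay within 6.74 to 6.96 and its non-responders within 4.93 to 5.91, a log2 difference of 1.44 (standard error 0.26, limma unadjusted p = 0.000213). It was 0.26 once low signals were set to 100. AOAH encodes an enzyme that inactivates bacterial lipopolysaccharide, and its log2 difference was 2.99. RB10 at 6.35 lay among the responders, whose range was 5.29 to 7.97, and the other 4 non-responders lay between 2.17 and 3.79. FGD3 had a log2 difference of 1.70 and ranges of 5.98 to 7.94 and 4.68 to 6.19. CAMTA2, a calmodulin-binding transcription activator, differed by 2.69, BARHL2, a homeobox factor, by 3.13, RGR, an opsin-like receptor, by 1.81 and LOC482182 by 1.90. These 4 were dim, with a signal of 100 or more in 3 to 6 of the 10 dogs. Once low signals were set to 100, these 4 differed by 0.03 to 0.19, AOAH by 0.34 and FGD3 by 0.50.

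In the lower direction, KBTBD7 and KLHL2 led, both adaptors of cullin 3 ubiquitin ligases. KBTBD7 read 6.38, 4.68, 4.32, 4.97 and 5.33 in NE45, RB07, FS25, NE42 and NE41, and 7.31, 6.70, 7.85, 7.02 and 7.97 in FS22, RB10, RB03, FS21 and RB16. Every responder lay below every non-responder, with a log2 difference of -2.23 (standard error 0.41, limma adjusted p = 0.906). KLHL2 was 6.67, 6.93, 6.55, 7.51 and 7.73 in the same responders and 8.72, 7.99, 8.11, 8.39 and 8.91 in the same non-responders. The groups again did not overlap, all 4 probe sets were lower in responders, and the log2 difference was -1.35 (standard error 0.31). Once low signals were set to 100, the log2 difference was -0.50 for KBTBD7, -0.52 for KLHL2 and 0.21 for ELOVL5.

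CXCL12, the stromal chemokine that retains lymphocytes in nodes, was 6.26, 6.82, 5.69, 7.57 and 7.10 in NE45, RB07, FS25, NE42 and NE41. It was 8.71, 7.43, 8.69, 7.57 and 8.53 in FS22, RB10, RB03, FS21 and RB16. NE42 overlapped RB10 and FS21, and the log2 difference was -1.50 (standard error 0.42). Normal nodes averaged 10.99, above every tumor. YARS2, the mitochondrial tyrosyl-tRNA synthetase, was over 100 in all 10 dogs and did not overlap, at 6.77 to 7.91 in responders and 8.19 to 8.49 in non-responders. Its log2 difference was -0.93 (standard error 0.26).

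FEN1, the flap endonuclease of DNA replication and repair, had a log2 difference of -1.13, with FS25 at 8.39 and the other 4 responders between 6.94 and 7.49. Its non-responders lay between 8.17 and 8.75. NRBF2, a component of the class III PI3K complex in autophagy, differed by -1.04 without overlap, at 5.64 to 6.37 against 6.56 to 7.69. TCF7L2, a transcription factor of Wnt signalling, differed by -1.50, and GNL2, a nucleolar GTPase, by -1.06. CACNB2, a subunit of calcium channels, differed by -2.67 and LOC611642 by -2.65. Once low signals were set to 100, the log2 difference was -0.34 for FEN1, -0.48 for NRBF2, -0.26 for TCF7L2, -0.13 for GNL2, -1.28 for CACNB2 and -0.68 for LOC611642. With class as a block, the 20 leading genes kept their direction, at limma log2 differences of -2.98 to 3.22. They were chosen by p in the same arrays, so a kept direction is no separate support.

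**Figure D2:**
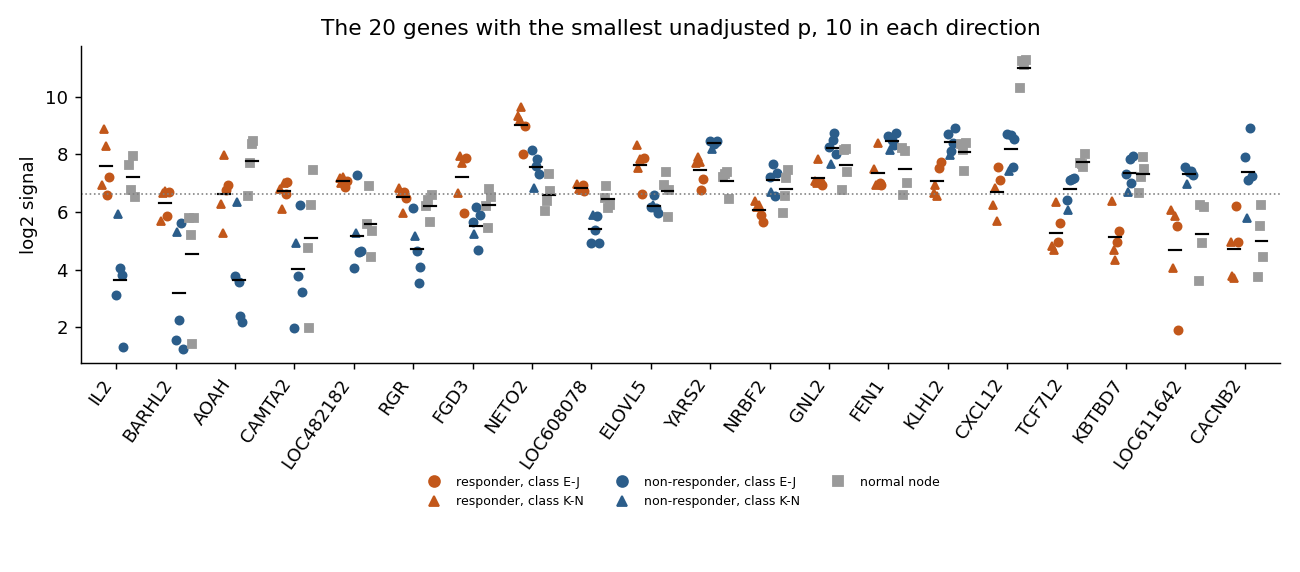
Log2 signal (y axis) of the 10 genes with the smallest unadjusted p in each direction (x axis), 1 point a dog or normal node, with the group mean as a bar and a dotted line at a signal of 100. IL2, LOC608078, ELOVL5 and BARHL2 had no overlap on the side higher in responders, KBTBD7, KLHL2, NRBF2, LOC611642 and YARS2 none on the lower side, and many points of the dimmer genes lie under the line.

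No class I PI3K subunit or adaptor passed the test. The forms of PI3K that the drug inhibits are not given in the sources used here. Of the 10 class I PI3K subunits and adaptors listed, 9 were measured and 8 were bright enough to test. None had an unadjusted p under 0.05 in limma, 3 were higher and 5 lower in responders, and the median log2 difference was -0.09, beside -0.06 over all genes tested. PIK3CA, the alpha catalytic subunit, was 10.18 ± 0.31 in responders and 10.51 ± 0.57 in non-responders (SD, n = 5 each). Its log2 difference was -0.33 (limma 95% interval -1.02 to 0.36). PIK3CB, the beta subunit, differed by -0.15 (interval -0.83 to 0.52).

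PIK3CD, the delta subunit of leukocytes, read 9.44, 9.39, 10.67, 7.84 and 10.66 in NE45, RB07, FS25, NE42 and NE41. It read 8.97, 10.29, 9.78, 10.24 and 7.58 in FS22, RB10, RB03, FS21 and RB16. Both groups spanned nearly the same range, and the log2 difference was 0.23 (limma 95% interval -1.23 to 1.69). PIK3CG, the gamma subunit, was 10.57, 10.17 and 10.07 in the responders of class K-N and 10.24 in RB10, the non-responder of that class. In class E-J it was 7.41 and 8.53 in NE42 and NE41 and 8.37, 8.30, 8.98 and 9.07 in FS22, RB03, FS21 and RB16. The 2 classes did not overlap, whereas the responders and non-responders did, with a log2 difference of 0.36 (interval -1.04 to 1.75).

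Among the regulatory subunits and adaptors, PIK3R1 differed by -0.02 (limma 95% interval -0.85 to 0.81), but its 3 probe sets ranged from -0.87 to 0.52. PIK3R2, a second regulatory subunit, differed by 0.64 (interval -1.57 to 2.84), and by 0.09 once low signals were set to 100. PIK3R6, a partner of the gamma form, differed by -0.39. PIK3R5, the other such partner, reached a signal of 100 in 1 dog and was not tested. PIK3AP1, the adaptor BCAP of B-cell receptor signalling, had the widest difference of the list. It was 7.00, 7.24 and 7.76 in NE45, RB07 and FS25 and 8.12 in RB10, against 9.96 to 11.12 in the 6 tumors of class E-J. Its log2 difference of -1.40 (standard error 0.91) became -0.16 (standard error 0.34) with class as a block.

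Below PI3K, AKT1 and AKT2 were dim, with a signal of 100 or more in 3 dogs each. AKT1 was 3.07 to 6.71 in responders and 2.54 to 7.57 in non-responders, and AKT2 was 2.91 to 7.09 and 4.65 to 8.12. Their log2 differences were -0.76 (standard error 0.95) and -1.17 (standard error 0.90), and each rests on a single probe set. Once low signals were set to 100, they were -0.18 and -0.34. PDPK1, which encodes the kinase PDK1, was bright in all 10 dogs and differed by 0.21 (limma 95% interval -0.59 to 1.01).

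Of the 12 restrainers of the pathway listed, 9 were tested, 8 of them higher in responders, with a median log2 difference of 0.28 and none at an unadjusted p under 0.05. PHLPP1, a phosphatase that acts on Akt, was 8.04, 7.17, 6.64, 6.92 and 7.74 in NE45, RB07, FS25, NE42 and NE41 and 7.26, 5.38, 6.33, 7.43 and 5.20 in FS22, RB10, RB03, FS21 and RB16. The groups overlapped and the log2 difference was 0.98 (standard error 0.49, limma unadjusted p = 0.0737). It was 0.38 once low signals were set to 100.

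INPP4B, a phosphatase that acts on the lipid products of PI3K, was 10.62, 10.32 and 10.39 in NE45, RB07 and FS25 and 9.74 in RB10. It was 6.24 and 5.37 in NE42 and NE41 and 5.63, 6.04, 5.81 and 5.97 in FS22, RB03, FS21 and RB16. All 4 class K-N tumors thus lay above all 6 class E-J tumors. The log2 difference of 1.95 between responders and non-responders (standard error 1.22) became 0.21 with class as a block (standard error 0.28). INPP4A, its relative, differed by 0.91 (standard error 0.62) and PIK3IP1, an inhibitor of the catalytic subunit, by 0.66 (standard error 0.58). With low signals set to 100, the differences were 1.25 for INPP4B, 0.25 for INPP4A and 0.06 for PIK3IP1. PPP2CA and PPP2R1A, subunits of protein phosphatase 2A, differed by 0.00 and 0.17, TSC2 by 0.28 and TSC1 by -0.23. The last pair form the complex that holds back mTOR.

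**Figure D3:**
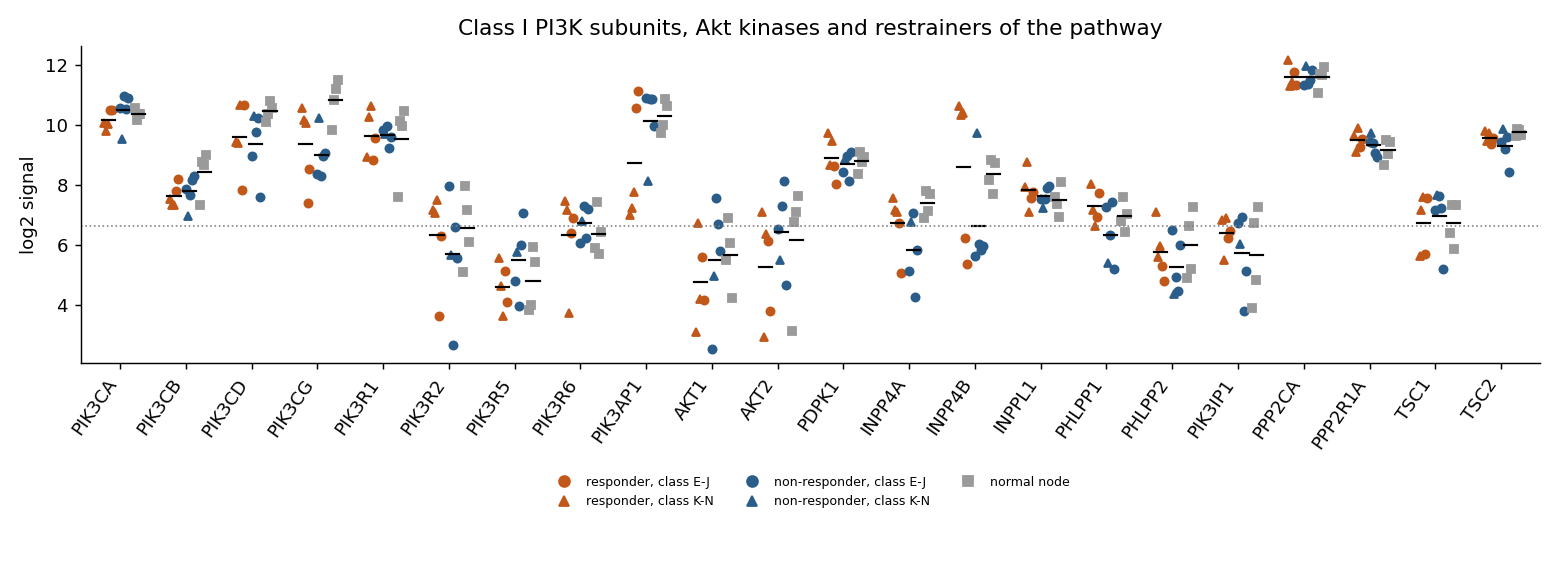
Log2 signal (y axis) of the measured class I PI3K subunits, Akt kinases, PDPK1 and restrainers (x axis), 1 point a dog or normal node, with the group mean as a bar and a dotted line at a signal of 100. Responders and non-responders overlap for every gene, and for INPP4B the triangles of class K-N, at 9.74 to 10.62, lie above the circles of class E-J, at 5.37 to 6.24.

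Beyond Akt, no listed gene passed the adjusted threshold. Of 17 mTOR genes tested, 5 were higher and 12 lower in responders, with a median log2 difference of -0.20. EIF4EBP1, a translation repressor that mTOR phosphorylates, was the member with an unadjusted p under 0.05, at 4.27, 7.26, 7.10, 7.15 and 6.69 in NE45, RB07, FS25, NE42 and NE41 and at 3.81 to 5.63 in non-responders. Its log2 difference was 1.40 (standard error 0.60, limma adjusted p = 0.906), and NE45 lay among the non-responders. It was 0.26 once low signals were set to 100. MTOR itself differed by -0.20. Of 11 FOXO factors and targets tested, 8 were higher, with a median of 0.48 and none at an unadjusted p under 0.05. FOXO1 differed by 0.59 (standard error 0.31) and BCL2L11, the pro-apoptotic target BIM, by 1.22 (standard error 0.65).

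Above PI3K, 13 receptors and adaptors had a median log2 difference of 0.05, with 7 higher and 6 lower. Of the 16 RAS and MAPK genes, 10 were higher, and RASA2, which switches RAS off, had the smallest unadjusted p. It was 10.67 to 11.43 in responders and 10.04 to 11.00 in non-responders, a log2 difference of 0.68 (standard error 0.26). The median of that list was 0.04. The 9 genes of other PI3K classes had a median of -0.34, with 8 lower and none at an unadjusted p under 0.05.

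The list medians of lymphocyte lineage shrank or turned once class was held fixed. All 10 B-cell markers tested were lower in responders, with a median log2 difference of -2.29, and none had an unadjusted p under 0.05. With class as a block the median was -0.71, and within class E-J it was 0.35. All 16 T-cell markers were higher, with a median of 1.15, which became -0.62 with class as a block and -0.97 within class E-J. A marker that is bright only in some of these tumors enters the test through them, so these counts describe the tumors and support no direction. Of 11 blood markers, 2 were bright enough to test, GP9, a platelet glycoprotein, and ALAS2, an enzyme of haem synthesis in red cells. Both were higher in responders, at log2 differences of 1.88 and 0.85, with neither at an unadjusted p under 0.05. Their median of 1.37 was 1.45 with class as a block, and within class E-J ALAS2 alone was tested, at -0.07.

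The mean level over the tested T-cell markers showed the split by dog. It was 10.79, 10.53 and 10.76 in NE45, RB07 and FS25 and 10.54 in RB10, against 6.04 to 7.47 in the 6 class E-J tumors. The mean over B-cell markers was 6.16, 4.30 and 3.81 in NE45, RB07 and FS25 and 7.36 in RB10, against 9.21 to 10.74 in class E-J. CD79B, a chain of the B-cell receptor, was 6.20, 2.20 and 2.91 in the class K-N responders and 7.39 in RB10, and 9.76 to 11.00 in class E-J. In bulk aspirates, fewer cells of a type and less RNA per cell cannot be told apart.

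Lists that share genes or cell types with these had a similar pattern. B-cell receptor signalling had a median log2 difference of -1.09 over 16 genes, and -0.21 with class as a block. T-cell receptor signalling had 1.34 over 15 genes and -0.12 with class as a block. Interferon-stimulated genes had -0.71 over 19 genes and 0.10 with class as a block. MYC and its targets had -0.39 over 19 genes and -0.03 with class as a block. Among the other cell types, 16 myeloid markers had a median of -0.11, 6 endothelial markers -0.36, 10 stromal markers -0.42 and 5 plasma cell markers -0.26. The part of these cells in the values of single genes was not tested.

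**Figure D4:**
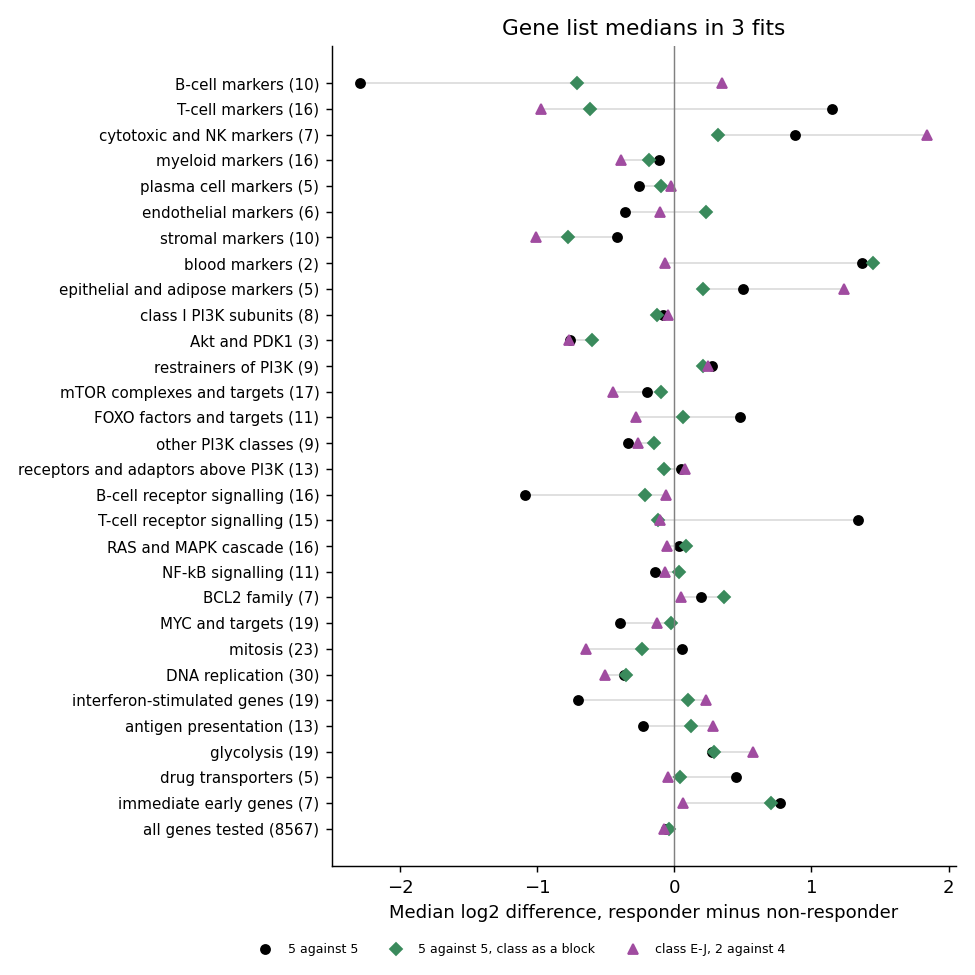
Median log2 difference of responders minus non-responders (x axis) for each gene list (y axis, with the number of genes tested in all 10 dogs) in 3 fits. B-cell markers moved from -2.29 to -0.71 and 0.35 and T-cell markers from 1.15 to -0.62 and -0.97 between the plain fit, the fit with class as a block and class E-J alone, while class I PI3K subunits stayed at -0.09, -0.12 and -0.04.

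A few listed genes, named for their small p in the same arrays, kept a like difference when class was held fixed. GPI, the second enzyme of glycolysis, was 12.61, 13.50, 12.98, 12.53 and 12.79 in NE45, RB07, FS25, NE42 and NE41. It was 11.49, 12.85, 11.65, 11.58 and 10.05 in FS22, RB10, RB03, FS21 and RB16. RB10 overlapped the responders, and the log2 difference was 1.36 (standard error 0.45, limma adjusted p = 0.906), 1.00 with class as a block and 1.47 within class E-J. ALDOA, another enzyme of that pathway, differed by 0.82, and the 19 glycolysis genes had a median of 0.28, with 13 higher and 6 lower.

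TFRC, the transferrin receptor of growing cells, was 7.82 to 9.10 in responders and 8.64 to 9.79 in non-responders. It had a log2 difference of -0.86 (standard error 0.35), -1.09 with class as a block and -1.02 within class E-J. BIRC3, an inhibitor of apoptosis induced by NF-kB, did not overlap, at 6.04 to 7.45 in responders and 7.47 to 8.54 in non-responders. Its log2 difference was -1.12 (standard error 0.37), but 2 dogs were separated by only 0.02, NE41 and FS21, and the difference was -0.18 once low signals were set to 100. BCL2, the anti-apoptotic protein, was 6.86, 7.30, 7.34, 6.61 and 8.64 in NE45, RB07, FS25, NE42 and NE41 and 5.31 to 6.77 in non-responders. It differed by 1.07 (standard error 0.42), by 1.08 with class as a block and by 0.46 once low signals were set to 100.

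Of 30 DNA replication genes tested, 25 were lower in responders, with a median log2 difference of -0.37, and it was -0.35 with class as a block. FEN1 and RRM2, a subunit of ribonucleotide reductase, had an unadjusted p under 0.05 there, with RRM2 at -0.75 (standard error 0.29). The 23 mitosis genes had a median of 0.06. Within class E-J the mitosis median was -0.65, with 7 of 22 genes lower at an unadjusted p under 0.05, and in class K-N it was 0.62. The DNA replication median was -0.50 within class E-J, with 28 of 30 genes lower and 6 of them at an unadjusted p under 0.05, and 0.06 in class K-N. Over all genes tested in class E-J, 307 of 8387 were lower at that p (3.66%).

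Drug transporters had a median log2 difference of 0.45 over the 5 tested. ABCB1, the multi-drug efflux pump, was 6.84, 8.12, 6.84, 6.96 and 2.55 in NE45, RB07, FS25, NE42 and NE41 and 6.57, 6.66, 6.79, 3.01 and 6.04 in FS22, RB10, RB03, FS21 and RB16. Both groups held 1 dog far under the rest, NE41 and FS21, and the difference was 0.45 (limma 95% interval -1.89 to 2.79). NE45, the tumor that stained positive, was within the range of the others. KDR, a receptor of vessel walls, differed by 1.71, while 4 of the 6 endothelial markers tested were lower in responders. MARCO, a macrophage scavenger receptor, differed by -1.96, and the 16 myeloid markers were split, with 7 higher and 9 lower. MARCO averaged 13.86 in normal nodes, above every tumor.

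Within class E-J, NE42 and NE41 were set against FS22, RB03, FS21 and RB16. Both responders came from clinic NE and no non-responder did, so clinic and response cannot be told apart here. Of 8387 genes whose signal reached 100 in 2 or more of the 6 arrays, 1 passed an adjusted p of 0.05 in limma (0.0119%). At an unadjusted p under 0.05 there were 391 genes (4.66%), 84 higher and 307 lower in responders. The groups did not overlap for 1042 genes (12.4%). With so few dogs many genes split fully by arrangement alone, so this count is not read as a result. The methods' t-test called 0 genes after adjustment and had 367 at an unadjusted p under 0.05.

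The gene that passed was NINJ1, which encodes a membrane protein that ruptures dying cells. It was 1.68 in NE42 and 1.98 in NE41, and 6.91, 7.26, 6.42 and 6.66 in FS22, RB03, FS21 and RB16. The log2 difference was -4.98 (standard error 0.33, limma adjusted p = 0.0297). The responders' signals were far under 100 and the non-responders' close to it, and once low signals were set to 100 the difference was -0.22. NINJ1 did not pass with any 1 of the 6 dogs left out (NE42, NE41, FS22, RB03, FS21 or RB16). In class K-N the order was turned, with 5.82, 7.98 and 7.48 in NE45, RB07 and FS25 and 5.06 in RB10.

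The other leading genes of class E-J did not pass and had the same form. GRK4, a kinase of G-protein-coupled receptors, was 4.99 and 4.89 in the responders and 7.53 to 8.49 in the non-responders, a log2 difference of -3.20. RASGEF1B, an exchange factor for small GTPases, differed by -4.61, LOC609874 by -4.24 and GIMAP1, a GTPase of lymphocytes, by -2.80. In the higher direction AOAH was 6.75 and 6.94 against 2.17 to 3.79, a log2 difference of 3.86. HEYL, a target of Notch, differed by 3.79, SOHLH1, a germ cell factor, by 3.10, USP54, of the ubiquitin protease family, by 2.23 and ZNF407, a zinc finger protein, by 2.04. The limma adjusted p of these 9 genes lay between 0.256 and 0.567. Once low signals were set to 100, the log2 difference was -1.10 for GRK4, and for the other 8 it lay between -0.54 and 0.44. For USP54, 1 of the 2 probe sets was higher and the other lower over all 10 dogs, and the brighter probe set alone gave -0.02 in class E-J.

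The difference between responders and non-responders was then set side by side in the classes, which share no array. In class K-N it rests on RB10, the lone non-responder, which was taken to vary like the other groups. Over the 8567 genes the log2 differences in E-J and K-N had the same sign for 45.6%, with a Spearman correlation of -0.10 across genes, which are not independent replicates. Of the 100 genes with the smallest p in class E-J, 29 had the same sign in class K-N. In this fit 324 genes had an unadjusted p under 0.05 in class E-J and 451 in class K-N. They shared 33 genes, and 5 of these had the same sign. The difference between the class differences passed an adjusted p of 0.05 in limma for 0 genes, with 502 at an unadjusted p under 0.05 and a smallest adjusted p of 0.229.

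The 5 genes with the same sign were ELOVL5 and KLHL2, described above, and KLRD1, RBIS and P2RY14. ELOVL5 was too dim to be tested within class E-J alone, and entered the fit of both classes through the filter over all 10 dogs. ELOVL5 and KLHL2 did not overlap between the groups over all 10 dogs, so their shared sign was fixed beforehand. In class E-J the brighter probe sets of ELOVL5 differed by 0.09 and 0.16 and the dimmer by 1.23 and 2.70. The dimmest probe set of KLHL2 differed by -2.90 there, and the brighter ones by -0.68, -0.06 and -0.0046. KLRD1, the CD94 receptor of NK cells and cytotoxic T cells, was 8.48 and 7.42 in NE42 and NE41 and 3.46 to 6.38 in the non-responders of class E-J. In class K-N it was 6.14, 3.83 and 7.04 in NE45, RB07 and FS25 and 1.74 in RB10. Its log2 difference over all 10 dogs was 2.16, and 0.60 once low signals were set to 100. RBIS, a ribosome biogenesis factor, had a log2 difference of 1.14 with class as a block (standard error 0.29), and P2RY14, a receptor for UDP-glucose, had -1.47 (standard error 0.30). The limma adjusted p of P2RY14 in the plain comparison was 0.978, since 11.25 in RB10 and 8.89 to 9.48 in the class K-N responders lay above the 6.30 to 7.82 of class E-J. With class as a block 251 genes had an unadjusted p under 0.05 (2.93%), 0 passed, and the smallest adjusted p was 0.999.

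**Figure D5:**
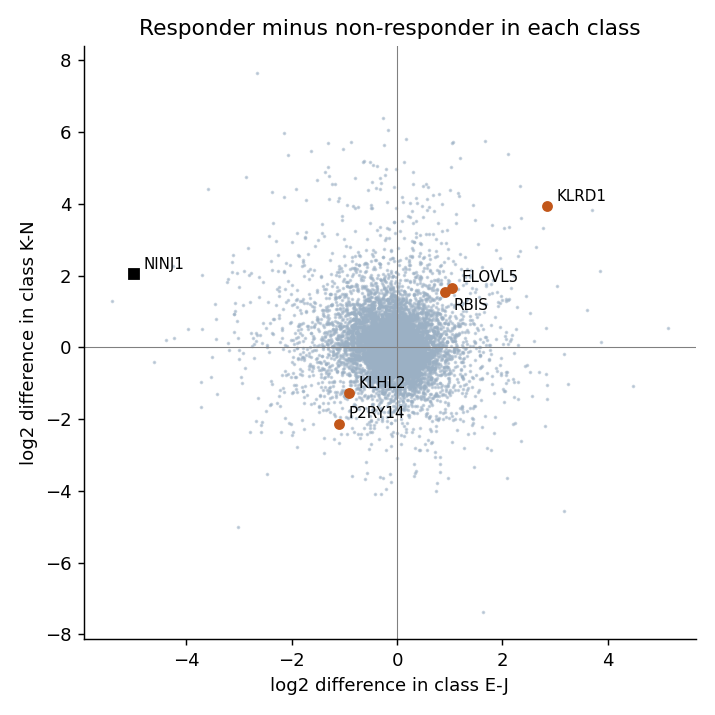
Log2 difference of responders minus non-responders in class E-J (x axis, 2 against 4 dogs) and class K-N (y axis, 3 against 1), 1 point a gene for 8567 genes. The points show no common direction (Spearman correlation -0.10), the 5 named circles are the genes with an unadjusted p under 0.05 and the same sign in both classes, and NINJ1 (square) lies at -4.98 and 2.03.

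With clinic as a block, the contrast is carried by FS25 against FS21 and FS22 and by RB07 against RB03, RB10 and RB16, since clinic NE had no non-responder. Both responders of those clinics are of class K-N and all but RB10 of the non-responders of class E-J. In that fit 1037 genes had an unadjusted p under 0.05 (12.1%), 0 passed, and the smallest limma adjusted p was 0.0676. B-cell markers had a median log2 difference of -5.40 and T-cell markers of 2.61 there. IL2 was higher in the responder by 4.85 within clinic FS and by 5.13 within clinic RB, KBTBD7 differed by -2.84 and -2.83, and KLHL2 by -2.01 and -1.40. None of these genes overlapped between the groups over the same dogs, so their sign within a clinic was fixed beforehand and is no separate support. Class and response cannot be told apart within these clinics, apart from RB07 and RB10.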

How the data were processed

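RNA of 14 lymph node aspirates, 10 lymphomas and 4 normal nodes of 3 dogs, was amplified with the WT-Ovation Pico kit and labelled with the Encore Biotin kit, per the labels. The authors summarised the probe intensities to 1 MAS 5.0 signal a probe set and deposited them on a linear scale set to a trimmed mean of 500 an array. The trimmed mean over the central 96% was 500.1 on each array. The number of arrays, and no read depth, limits the precision. Of 43035 probe sets, 29254 carried a single gene symbol in GEO's platform annotation, and log2 signals were averaged to 15115 genes. A match by Entrez ID to RefSeq, found for 27680 of these probe sets, changed 0 symbols. The array scan batch is not given in the sources used here.

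Responders were set against non-responders by two-sided tests of limma (version 3.58.1, under R 4.3.3) with lmFit and eBayes, with Benjamini-Hochberg adjustment over all genes tested and a threshold of 0.05, in all 10 lymphomas, within class E-J, and in 4 groups of class by response. Each array is a separate dog, and p-values measure the spread between dogs. The methods' t-test (Welch) was run on the same values. Alternatives changed the filter, the scaling, the log scale, the gene summary, the unit and the arrays in the fit, or added class, clinic, label or prior chemotherapy as a block. The fits were also run on simulated data of independent normal noise with known changes. Those data held no class or clinic structure, so they cannot show how the tests behave under the design here. The genes named were the 10 of smallest p a direction (5 within class E-J), all class I PI3K, Akt and restrainer genes, up to 3 of each other list by p, lineage markers and drug transporters. The members and the 29 gene lists were chosen with earlier results of these data known. The plots came from Python 3.11.15 and matplotlib 3.10.9.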

Additional observations from a re-analysis of the deposited data

Results flagged for a closer look

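In 17 of 172 groups of 5 dogs examined, the highest or lowest dog stood apart from the other 4 by more than the 95% critical value of Dixon's ratio, where chance flags about 1 in 20. The groups share dogs and genes, so they are not independent. RB10, the non-responder of class K-N, was the dog in 9 of them. Its mean log2 level was 10.5 over the T-cell markers (next dog 7.47), 7.23 over the plasma cell markers (next 8.15) and 8.48 over B-cell receptor signalling (next 10.2). Its GAPDH 3' to 5' ratio was 8.94 (next 5.26). Among genes, RB10 stood apart in INPP4B at 9.74 (next 6.04), ABCC5, a drug transporter, at 9.71 (next 5.85), ABCC1, another, at 7.28 (next 9.22), GRK4 at 4.10 (next 7.53) and GIMAP1 at 3.24 (next 6.25).

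The stromal marker level was 9.04 in RB07 among responders (next 7.37) and 6.95 in RB16 among non-responders (next 8.14). RB07 also stood apart in the mean of the RAS and MAPK genes, at 8.96 (next 8.50). FS25 stood apart in GNL2 at 7.83 (next 7.09) and in PIK3R6 at 3.72 (next 6.40), and RB16 in TSC1 at 5.20 (next 7.15). ABCB1 was 2.55 in NE41 among responders (next 6.84) and 3.01 in FS21 among non-responders (next 6.04).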

How the results depend on the processing

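Over all 10 dogs, the count of genes past the threshold stayed at 0 under each alternative that kept all 10 dogs, with the methods' t-test, with each block and with probe sets in place of genes, and it ranged from 0 to 2 with 1 dog left out. It was 1 without RB10 (LRIG1) and 2 without RB03 (LOC482182, adjusted p = 0.0363, and TNFRSF18). Over all 10 dogs, LRIG1 and TNFRSF18 turned to -0.07 and -0.16 with low signals set to 100. The alternative without RB07, RB10 and FS22 was chosen after seeing the data. For the 118 genes named by the rule, which leaves out LRIG1 and TNFRSF18, 0 differences over all 10 dogs turned sign among those with an unadjusted p under 0.05. A small p in the same arrays makes a turn of sign unlikely, so this count says little about stability. Within class E-J, the count of 1 became 0 with dim genes kept in, on the scale of log2(signal + 50), with low signals set to 100, with the methods' t-test, without FS22, with 4 groups in 1 fit and with probe sets in place of genes. It ranged from 0 to 1 with 1 dog left out, and the only gene called there was CCDC172, without RB03. USP54 reversed to -0.0209 with its brightest probe set. For the difference between the classes, the count of 0 became 1 with log2(signal + 50) (EPCAM) and 2 with low signals set to 100 (EPCAM and CCL23), and it ranged from 0 to 1 with 1 dog left out (NINJ1 without NE45 and SH2D1B without NE41). The difference between the classes could not be fitted without RB10, the lone non-responder of class K-N. In RB10 EPCAM was 11.27 and CCL23 10.81, against at most 7.81 and 7.66 in any other tumor. Another scaling moved the median difference over all genes from -0.06 to between -0.12 and -0.04, and within class E-J from -0.07 to between 0.00 and 0.05. No paired analysis was possible, because each lymphoma dog gave a single array and belongs to a single group.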
